A study of Mus musculus with 12 samples.

Results

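The genes of the proteasome were followed across 12 RNA-seq libraries of mouse regulatory T cells (Treg). They were chosen by symbol, as Psm followed by a letter from a to g and a number, with pseudogenes left out. Of the 23337 gene symbols in each file 49 matched, and no pseudogene symbol was among them. One match, Psmc3ip, is a recombination factor named after its binding to Psmc3 and no proteasome subunit, which leaves 48. After a filter on low counts 47 of the 49 genes were tested. The others were Psma8, an alpha subunit of the testis, with between 0 and 10 counts per library, and Psmb11, a subunit of the thymus epithelium, with 0 counts in all 12 libraries.

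All mice were C57BL/6 at 8 weeks of age and carried FoxP3-cre-GFP, in which the promoter of Foxp3, the factor that defines Treg, drives Cre together with a green fluorescent reporter. The libraries labelled WT came from mice with Hrd1 +/flox, which have a floxed and an intact allele, and those labelled KO from mice with Hrd1 flox/flox, so no group was free of a floxed allele or of Cre. Natural Treg (nTreg) were CD4+GFP+ cells sorted from spleen and lymph nodes. Induced Treg (iTreg) were CD4 T cells cultured for 5 days with IL2 and TGFbeta, from which GFP-positive cells were then taken. There were 3 libraries for each of the 4 groups, and whether each came from its own mouse is not given in the labels. The p-values therefore cover the spread among these libraries, which may be technical. The question behind the design was what both kinds of Treg do without Hrd1, an enzyme in the membrane of the endoplasmic reticulum (ER) that attaches ubiquitin.

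The proteasome is the protease that destroys proteins tagged with ubiquitin, among them the misfolded proteins that Hrd1 marks for removal from the ER. Its 20S core is a barrel of alpha rings, which gate the entry, and beta rings, of which Psmb5, Psmb6 and Psmb7 carry the standard active sites. In lymphocytes, and after interferon-gamma, Psmb8, Psmb9 and Psmb10 can take the places of Psmb5, Psmb6 and Psmb7 in this order, and the resulting immunoproteasome is known for making peptides for display on MHC class I. The 19S cap recognises ubiquitin and unfolds substrates with its ATPases (Psmc genes), while other caps (Psme genes) open the core without ubiquitin. When proteasome activity is short, the transcription factor NRF1 (gene Nfe2l1), itself an ER protein that Hrd1 can mark for degradation, is known to raise the genes of the standard core and the 19S cap together.

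Values are CPM, that is counts relative to the library total after TMM normalisation, and folds are log2 fold changes from edgeR's quasi-likelihood test with their standard error (SE) and an adjusted p (Benjamini-Hochberg over all 12038 genes tested, threshold 0.05, n = 3 libraries per group). Total counts ran from 6763458 to 15462894 per library, and single tested members had between 14 and 7025 counts in a library. The targeted gene, Syvn1 in the files, was at 73.7, 87.2 and 75.5 CPM in nTreg labelled WT and at 145.5, 136.8 and 129.7 CPM in those labelled KO (log2 fold change 0.80, SE 0.17, adjusted p = 0.0232). This goes against the KO label, a call that was lost in 8 of 22 alternative fits, each of which left out 1 or more nTreg libraries. In iTreg Syvn1 did not pass (-0.30, SE 0.17, adjusted p = 0.749). The floxed exons are not given in the sources used here and counts cover the whole gene, so these values do not check the label, and directions below are those of libraries labelled KO. The 7 markers of T cells and Treg were detected in every group, with sums of 4830 to 5290 CPM in nTreg WT and 4570 to 5360 CPM in iTreg WT. These sums hide opposite directions. Il2ra went from 838 ± 38.6 CPM in nTreg WT to 3140 ± 153 CPM in iTreg WT. The other markers all had lower means in iTreg WT, Foxp3 for example 359 ± 46.5 against 621 ± 41.5 CPM. Xist, which is transcribed from an inactive X chromosome, was present in 3 libraries, nTreg WT replicate 3, nTreg KO replicate 3 and iTreg WT replicate 2.

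Proteasome genes took up under 1% of the counts in each library. The 49 genes held 0.446% ± 0.0111 (SD, n = 3) of all counts in nTreg WT, 0.482% ± 0.0174 in nTreg KO, 0.732% ± 0.0443 in iTreg WT and 0.765% ± 0.0932 in iTreg KO. Their summed level was 4400 to 4580 CPM in the nTreg WT libraries and 4590 to 5000 CPM in nTreg KO. In iTreg it was 6730 to 7750 CPM in WT-labelled and 7130 to 8910 CPM in KO-labelled libraries. No iTreg library came down to the level of an nTreg library, and the highest sum belonged to iTreg KO replicate 2.

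**Figure D1:**
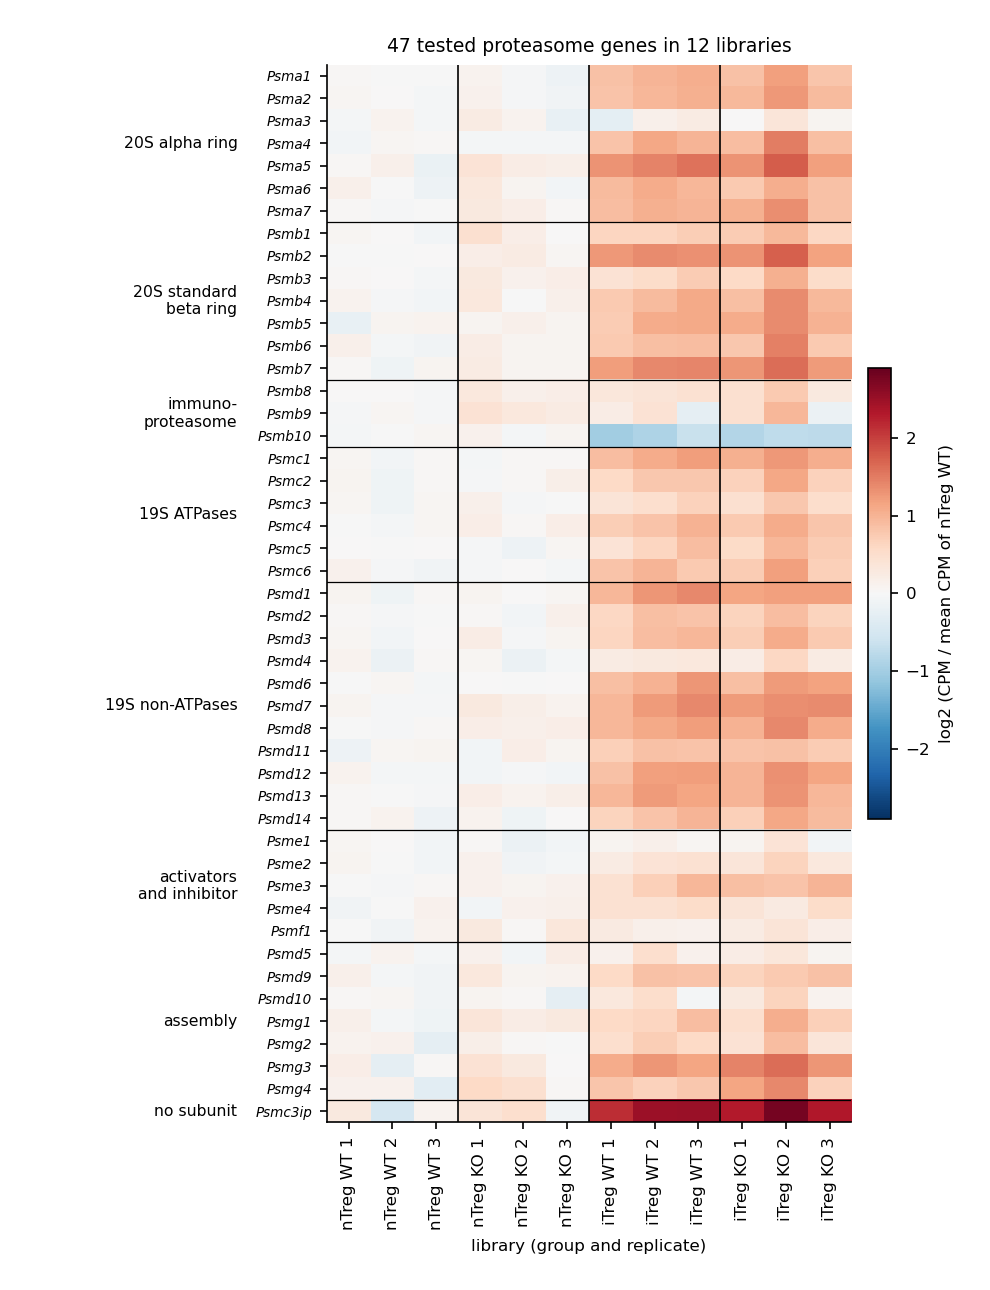
Level of the 47 tested genes in each library, as log2 of the CPM over the gene's mean CPM in nTreg WT (colour), with genes in rows by subgroup and libraries in columns by group. The columns of both nTreg groups are near 0 and those of iTreg are mostly red, apart from blue Psmb10 and pale Psmb9, Psma3, Psme1 and Psmf1; iTreg KO replicate 2 is the reddest column.

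Promoter sequences are shown for Psmb5 and Psmb6, the standard core genes whose windows hold a match to the element that NRF1 and related factors bind, and for Psmb10, the member that was lower in iTreg. The genes were thus chosen after their matches and values were seen, and the set does not include Psmb7, the counterpart of Psmb10. RefSeq promoter windows (250 bases before to 50 after a gene's start, build GRCm38.p6) matched 41 of the 49 genes by symbol. Each line gives 150 bases, 5′ to 3′ on the strand of the gene, that end before the RefSeq start and before the first exon annotated in GENCODE M21, with capitals for matches to TGACNNNGC.
Psmb5 (chr14:54618023-54618172, minus strand): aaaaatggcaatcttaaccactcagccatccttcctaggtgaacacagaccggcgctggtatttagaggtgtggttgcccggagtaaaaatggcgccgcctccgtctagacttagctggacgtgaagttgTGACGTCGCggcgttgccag
Psmb6 (chr11:70525207-70525356, plus strand): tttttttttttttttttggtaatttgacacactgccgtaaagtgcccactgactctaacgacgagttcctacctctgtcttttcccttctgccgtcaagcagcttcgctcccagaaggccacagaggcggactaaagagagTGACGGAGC
Psmb10 (chr8:105938445-105938594, minus strand): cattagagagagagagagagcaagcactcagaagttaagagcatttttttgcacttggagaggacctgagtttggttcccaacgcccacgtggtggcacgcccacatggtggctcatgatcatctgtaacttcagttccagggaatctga
The capitals in Psmb5 and Psmb6 mark matches to TGACNNNGC, the core of the antioxidant response element that NRF1 and related factors bind, starting 47 and 9 bases before the RefSeq start. In the Psmb10 window none of the motifs searched occurs. The motifs searched, on both strands, were TGACNNNGC, the STAT site TTCNNNGAA, the core of the interferon-stimulated response element, CCAAT and the XBP1 site TGACGTGG. Among the 44 windows of proteasome genes 13.6% held TGACNNNGC, against 12.4% of all 32851 windows. TTCNNNGAA was in 6.82% against 8.3%, the interferon-stimulated response element core in 11.4% against 3.44%, CCAAT in 34.1% against 37.4% and TGACGTGG in 0% against 0.676%. The interferon element was found in Psmb3, Psmd4, Psmd9, Psme1 and Psmg4. These matches describe the letters only. The windows of Psmb8 and Psmb9 lay inside the genes as annotated in GENCODE, past their first annotated bases. For these genes the search therefore did not cover the sequence before those bases.

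Between KO-labelled and WT-labelled nTreg 0 of the 47 proteasome genes tested passed. Of all genes 2.53% passed (304 of 12038, with 2.18% higher and 0.341% lower). At that background share a count of 0 in 47 is not a result about these genes. The median log2 fold change was 0.09 (1.07-fold), against 0.00955 for all genes, and 38 of 47 values were positive. The 95% intervals of this fit ran over all 47 genes from -0.43 to 0.85, which is a 0.742-fold to a 1.80-fold level. They rest on a spread estimated over all 12 libraries, iTreg included, without regard to replicate numbers, and other fits gave other limits. At an unadjusted p under 0.05, 0 of the 47 passed with this edgeR fit. With edgeR on the nTreg libraries alone 8 did, and 1 passed after adjustment (2.13%, beside 10.2% of all genes). DESeq2 called 0, and limma voom called 0 with 6 at an unadjusted p under 0.05.

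By subgroup, the 7 standard beta subunits were all positive in nTreg, from 0.09 for Psmb5 to 0.23 for Psmb1, with a median of 0.16. The 7 alpha subunits ran from -0.06 (Psma4) to 0.27 (Psma5), the 6 ATPases of the 19S cap from -0.05 (Psmc5) to 0.14 (Psmc4), and its 11 non-ATPases from -0.06 (Psmd12) to 0.19 (Psmd7). The activators and the inhibitor lay between -0.07 (Psme1) and 0.22 (Psmf1, adjusted p = 0.407, the smallest of all members). Among the assembly factors, which hold partly built rings together, values ran from -0.04 (Psmd10) to 0.39 (Psmg4, SE 0.21, adjusted p = 0.459). For 11 of the 47 genes every KO-labelled library lay above every WT-labelled one (all genes 15.7%), and for 0 of them below (all genes 14.1%). Those were Psma5, Psmb2, Psmb3, Psmb7, Psmb8, Psmb9, Psmd7, Psmd8, Psmd13, Psme3 and Psmg1. The library nTreg KO replicate 1 was the highest of the 6 nTreg libraries for 29 of the 47 genes, and without it the median was 0.0849. The summed B cell markers were lower with the KO label (16.5 to 17.1 CPM against 28.1 to 33.7 CPM), and so were the NK cell markers (4.96 to 5.79 CPM against 7.07 to 13.3 CPM). The myeloid markers ran from 50.4 to 485 CPM against 59.4 to 218 CPM. The part of these markers in the values above was not tested.

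Of the immunoproteasome subunits, Psmb9 and Psmb8 had KO estimates in nTreg above the members' median and Psmb10 one below it. Psmb9 had 145.0, 153.9 and 144.0 CPM in the WT-labelled libraries against 198.2, 181.1 and 173.8 CPM in the KO-labelled ones. These groups did not overlap, but the log2 fold change of 0.32 (SE 0.23, 95% interval -0.19 to 0.83) did not pass (adjusted p = 0.603). It passed in 1 of 22 alternatives, the fit of the 6 nTreg libraries alone (0.32, adjusted p = 0.0239). Psmb8 was at 404.1, 405.0 and 392.6 CPM against 495.7, 442.6 and 457.0 CPM, again without overlap (0.22, SE 0.12, adjusted p = 0.45). Psmb10 overlapped, with 124.8, 128.8 and 135.6 CPM against 140.8, 124.1 and 137.4 CPM (0.05, SE 0.10, adjusted p = 0.895). In mm10 Psmb8 lies at chr17:34197721-34201454 on the plus strand, beside Psmb9 at chr17:34181987-34187764 on the minus strand, while Psmb10 lies apart at chr8:105935735-105938444. Psmb9 overlaps Tap1, the peptide transporter gene on the opposite strand. Whether the counting used strand is not given in the sources used here. Reads from the shared stretch, chr17:34187553-34187764, may therefore not be told apart. Tap1 itself had 601 ± 13.6 CPM in WT-labelled and 678 ± 34.7 CPM in KO-labelled nTreg (0.17, SE 0.14, adjusted p = 0.654).

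In iTreg 0 of the 47 genes passed between the labels, beside 0.183% of all genes (22 of 12038; 0.166% higher and 0.0166% lower). The median log2 fold change was 0.08 (1.06-fold) against -0.0131 for all genes, with 39 of 47 values positive, from -0.10 for Psma6 to 0.36 for Psmg4 (SE 0.20, adjusted p = 0.749). The smallest adjusted p of a member was 0.72, for Psmg3, an assembly factor of the alpha ring. Psmg3 was also the 1 gene whose KO-labelled iTreg libraries all lay above the WT-labelled ones (all genes 4.68%), at 32.2, 36.8 and 28.9 CPM against 25.0, 28.8 and 26.4 CPM. None lay wholly below (all genes 4.95%). By edgeR 0 passed at an unadjusted p under 0.05, DESeq2 called 0, and limma voom called 0 with 1 at an unadjusted p under 0.05.

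The positive median in iTreg depended on single libraries and on the fit. In iTreg KO replicate 2, 37 of the 47 genes had their highest value of the 6 iTreg libraries, with a median of 0.33 (1.25-fold) above the mean log2 of the other KO-labelled libraries. Psmb6 stood at 128.8, 205.4 and 127.0 CPM in the KO-labelled libraries, beside 126.4, 136.7 and 137.8 CPM with the WT label. Psmb9 stood at 204.2, 286.7 and 130.9 CPM, beside 170.6, 198.2 and 122.5 CPM. Psmb10 was not among the genes high there, with 71.7, 78.2 and 76.4 CPM. Without this library the median of the 47 genes was -0.0378, with 37 values negative. It was 0.00584 (25 positive, 22 negative) without iTreg WT replicate 1 and 0.0113 (26 positive, 21 negative) with limma voom. The same library had the lowest Foxp3 (191.1 CPM, against 391.9 and 374.9 CPM in KO replicates 1 and 3) and the highest Irf1, a factor that drives immunoproteasome genes (419 CPM, against 278 and 259 CPM). What this library's values have in common was not tested.

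**Figure D2:**
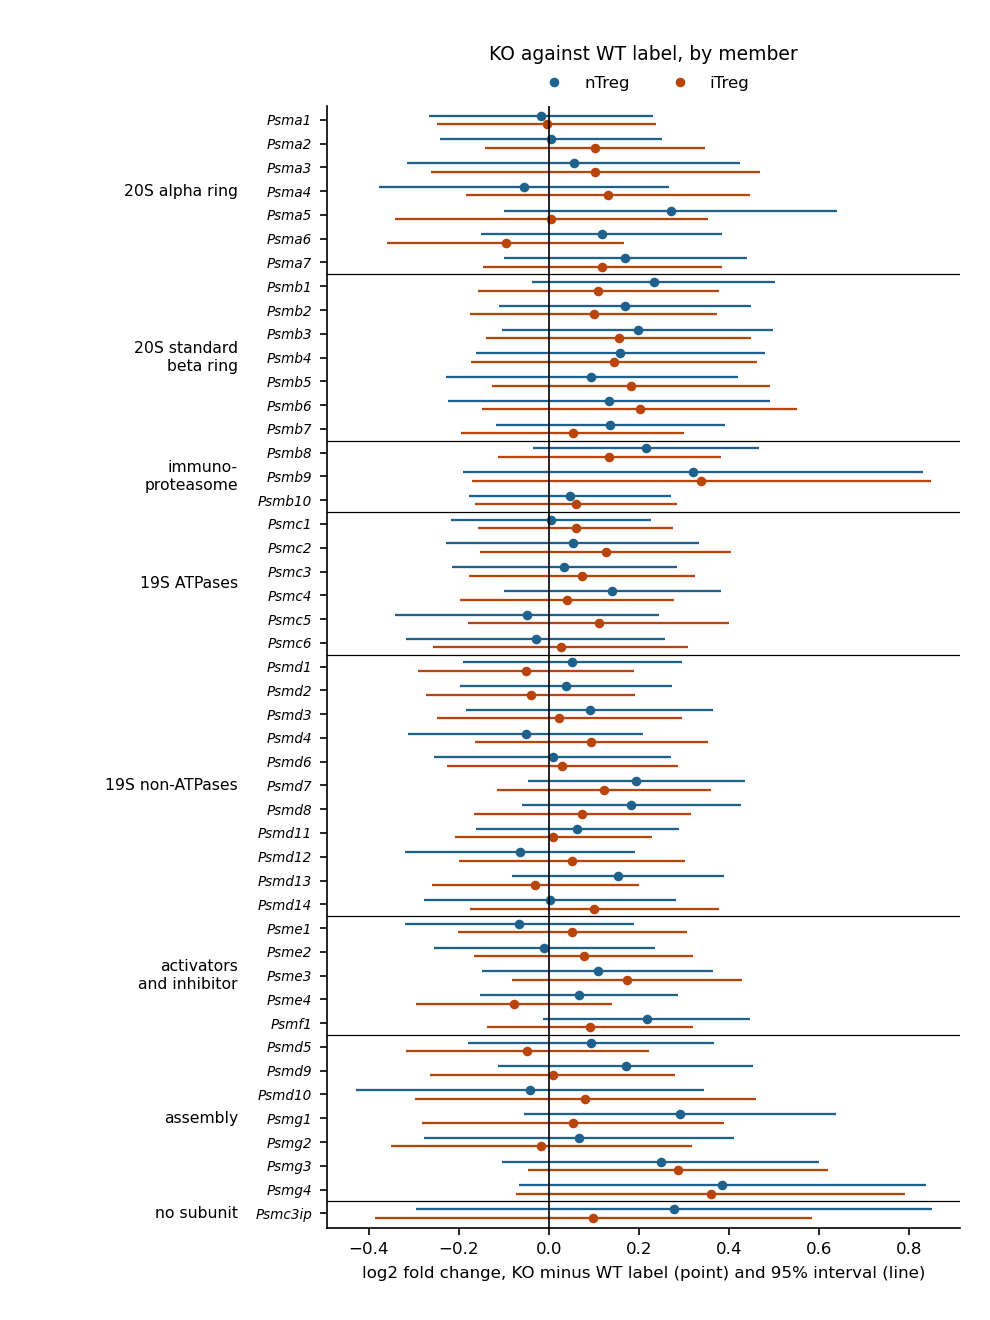
Log2 fold change of each tested gene between KO and WT label (point) with its 95% interval (line), in nTreg and in iTreg, with genes in rows by subgroup and the vertical line at no change. Every interval spans 0, and none reaches below -0.43 or above 0.85.

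The difference of the KO effects between the cell kinds (iTreg minus nTreg) passed for 0 of the 47 genes, beside 0.291% of all genes (35 of 12038; 0.0166% higher and 0.274% lower), with 0 at an unadjusted p under 0.05 by edgeR and 0 calls by DESeq2 or limma voom. Values ran from -0.27 (Psma5) to 0.19 (Psma4), with a median of -0.03 and a smallest adjusted p of 0.922. Intervals were wider here. Over all 47 genes they ran from 0.526-fold to 1.67-fold, so differences up to those limits were not excluded for the genes that reached them.

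Among known regulators of proteasome genes, 1 of 12 tested rose in KO-labelled nTreg (all genes 2.18%) and none fell (all genes 0.341%). Nfe2l1, the gene of NRF1, had 150.4, 147.3 and 145.9 CPM in WT-labelled libraries against 224.3, 254.9 and 281.9 CPM in KO-labelled ones. The groups were far apart (log2 fold change 0.78, SE 0.10, adjusted p = 6.87e-04). The call held in 21 of 22 alternatives, and without the 3 libraries with Xist the adjusted p was 0.0513. In iTreg Nfe2l1 was at 134.8, 124.8 and 143.4 CPM against 167.2, 161.7 and 160.4 CPM, also without overlap, and did not pass (0.28, SE 0.10, adjusted p = 0.488). The difference between both effects did not pass either (-0.50, SE 0.14, adjusted p = 0.242). Side by side, the standard core had a median of 0.13 and the 19S cap of 0.04 in nTreg, with 0 of 31 members called (all genes 2.53%). Nfe2l2, Mafg, Bach1, Ngly1, the enzyme that trims NRF1, Irf1 and Nlrc5 did not pass in nTreg (adjusted p from 0.351 to 0.988).

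Between the cell kinds the proteasome genes differed broadly. These comparisons use the same libraries as those between the labels. In WT-labelled libraries 39 of 47 genes were higher in iTreg, beside 34.8% of all genes, and 1 was lower, beside 30.4% of all genes; together they were 85.1% of members against 65.2% of all genes. The median log2 fold change was 0.83 (1.78-fold) against 0.0489 for all genes. In KO-labelled libraries, which are a separate set of 6, 40 were higher (all genes 32.1%) and 1 was lower (all genes 29.8%, and 61.9% in either direction), with a median of 0.79 (1.72-fold). The 40 genes called with the WT label were all called with the KO label, where Psmd4 came in addition, and 6 were called in neither, Psma3, Psmb9, Psmd5, Psmd10, Psme1 and Psmf1. For 42 genes every WT-labelled iTreg library lay above every WT-labelled nTreg one (all genes 37.4%), and for 1 gene below (all genes 33.9%). With the KO label these were 40 (all genes 34.1%) and 1 (all genes 32.8%). Over the 46 subunits tested, the effects with each label had a Pearson r of 0.965 and a Spearman rho of 0.948, a description across genes that share libraries and are not independent.

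The standard 20S core was higher almost throughout, in 13 of 14 tested members with either label (all genes 34.8% with the WT label and 32.1% with the KO label). Its median was 0.97 (1.96-fold) with the WT label. Psmb7, the trypsin-like active site, was at 64.8, 57.8 and 66.8 CPM in nTreg WT and at 146.6, 164.7 and 167.6 CPM in iTreg WT (1.34, SE 0.12, adjusted p = 1.37e-06). Psmb5, the chymotrypsin-like site, was at 13.7, 16.8 and 17.2 CPM against 26.7, 33.4 and 34.1 CPM (0.97, SE 0.15, adjusted p = 1.07e-04). Psmb6, the caspase-like site, was at 82.4, 71.6 and 69.5 CPM against 126.4, 136.7 and 137.8 CPM (0.84, SE 0.16, adjusted p = 6.90e-04). In each of the 3 genes the lowest iTreg library lay above the highest nTreg library. Psma5, an alpha subunit, had the largest estimate of all subunits with 1.44 (SE 0.17), from 13.4 ± 1.59 to 36.4 ± 3.39 CPM, and Psmb2, a beta subunit with no active site, rose by 1.32 (SE 0.13), from 73.1 ± 0.242 to 182 ± 8.11 CPM. The exception was Psma3, with 19.9 ± 1.31 CPM in nTreg WT against 20.6 ± 3.7 CPM in iTreg WT (0.05, SE 0.17, adjusted p = 0.793). Psma3 has 3 annotated pseudogene copies with up to 100% identity, which cover 27% of its transcript. Psma5, with the largest estimate, has 2 with up to 98.6% identity, which cover 76.5%. Reads that fit several places may be missing from both counts, which was not tested.

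The 19S cap, which feeds substrates into the core, was higher in 16 of 17 members with the WT label (all genes 34.8%). With the KO label it was higher in 17 of 17 (all genes 32.1%). All 6 ATPases rose with both labels, from 0.52 for Psmc3 to 1.06 for Psmc1 (SE 0.10, adjusted p = 2.77e-06; 72.8 ± 3.63 against 152 ± 16.1 CPM) in WT-labelled cells. Of the 11 non-ATPases, the scaffold Psmd1 rose by 1.23 (SE 0.11, adjusted p = 1.98e-06), from 119.3, 104.3 and 114.9 CPM to 219.8, 275.0 and 297.5 CPM. Psmd7, the partner of the deubiquitinase, rose by 1.20 (SE 0.11), and the deubiquitinase gene Psmd14 itself by 0.83 (SE 0.13, adjusted p = 1.35e-04). Psmd13, Psmd8, Psmd12 and Psmd6, subunits of the lid, rose by between 1.07 and 1.12. Psmd4, a ubiquitin receptor, had the lowest value, 0.27 (SE 0.12, adjusted p = 0.0661) with the WT label and 0.41 (adjusted p = 0.00963) with the KO label. The call with the KO label was lost without nTreg KO replicate 2, the nTreg libraries numbered 2 or the 3 libraries with Xist (adjusted p up to 0.0581 over the alternatives). The sum of the 17 cap genes over the sum of the 14 tested standard core genes, per kilobase of merged exons, was 1.19 ± 0.0377 in nTreg WT and 1.07 ± 0.0526 in iTreg WT. KO-labelled libraries had between 1.06 and 1.22 in nTreg and between 0.992 and 1.14 in iTreg.

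**Figure D3:**
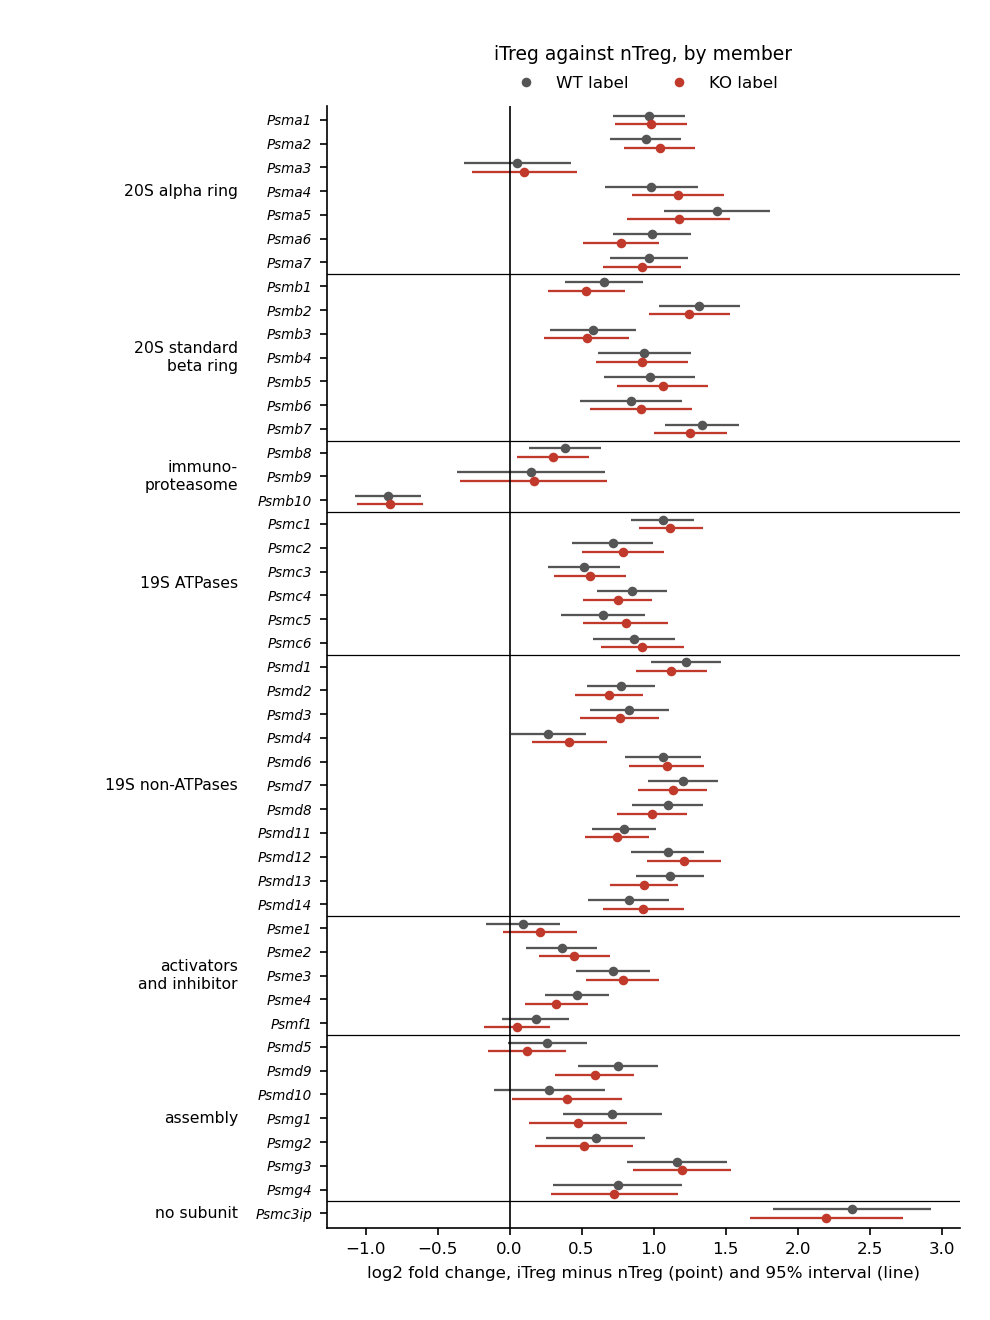
Log2 fold change of each tested gene between iTreg and nTreg (point) with its 95% interval (line), in WT-labelled and in KO-labelled libraries, with genes in rows by subgroup and the vertical line at no change. Core and 19S genes lie mostly between 0.5 and 1.4, Psmb10 lies near -0.84, and Psmc3ip, which is no subunit, lies farthest right at 2.38.

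Of the 3 immunoproteasome subunits 1 rose, 1 fell and 1 did not pass, while all 3 standard counterparts rose (all genes 34.8% higher and 30.4% lower with the WT label). Psmb10 fell, from 124.8, 128.8 and 135.6 CPM in nTreg WT to 64.4, 69.9 and 82.9 CPM in iTreg WT (-0.84, SE 0.10, adjusted p = 2.10e-05), a 1.79-fold lower level. In KO-labelled cells it fell from 140.8, 124.1 and 137.4 to 71.7, 78.2 and 76.4 CPM (-0.83, SE 0.10, adjusted p = 2.88e-05). It was the 1 member lower in iTreg, and the groups were well apart with each label. Psmb9 was at 145.0, 153.9 and 144.0 CPM against 170.6, 198.2 and 122.5 CPM, with overlapping groups, and did not pass (0.15, SE 0.23, adjusted p = 0.592), and the iTreg libraries numbered 3 were the lowest with both labels. Without both iTreg libraries numbered 3 it passed with the KO label (0.40, adjusted p = 0.025). Psmb8, the most abundant of the 3 genes, was at 404.1, 405.0 and 392.6 CPM against 503.8, 521.3 and 543.2 CPM, and its estimate was below that of each standard core gene that passed (0.38, SE 0.12, adjusted p = 0.0108; without the 3 libraries with Xist 0.0968). With the KO label Psmb8 rose by 0.30 (SE 0.12, adjusted p = 0.036), a call lost in 10 of 22 alternatives, among them the fits without any 1 nTreg WT library, nTreg KO replicate 2, nTreg KO replicate 3, iTreg KO replicate 2 or the 3 libraries with Xist.

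Within a library, the ratio of an immunoproteasome subunit to the subunit it replaces does not depend on the scaling between libraries. The ratio of Psmb10 to Psmb7, in CPM per kilobase of merged exons, was 3.86, 4.47 and 4.07 in nTreg WT and 0.881, 0.852 and 0.992 in iTreg WT, 4.55-fold lower. In KO-labelled cells it was 3.81, 3.71 and 4.11 against 0.938, 0.808 and 1.03, 4.19-fold lower. The lowest nTreg ratio lay far above the highest iTreg ratio. The ratio of Psmb8 to Psmb5 was 6.76 ± 0.933 in nTreg WT and 4.47 ± 0.476 in iTreg WT, and 7.27 ± 0.576 and 4.27 ± 0.193 with the KO label. The ratio of Psmb9 to Psmb6 was 1.02 ± 0.106 and 0.629 ± 0.153 with the WT label, and 1.15 ± 0.0237 and 0.684 ± 0.144 with the KO label. In all 3 pairs the nTreg and iTreg libraries did not overlap, while the KO-labelled and WT-labelled libraries of a kind overlapped in every pair except Psmb9 to Psmb6 in nTreg (at most 1.1 with the WT label, and 1.15 ± 0.0237 with the KO label). The size of a ratio between genes depends on the length used (Psmb8 to Psmb5 in nTreg KO was 15.1 per kilobase of the principal transcript), but its change between groups does not. Psmb5 has 2 pseudogene copies with up to 98.9% identity over 88.4% of its transcript, and reads that fit several places may be missing from its count, which was not tested. The ratios had no test.

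**Figure D4:**
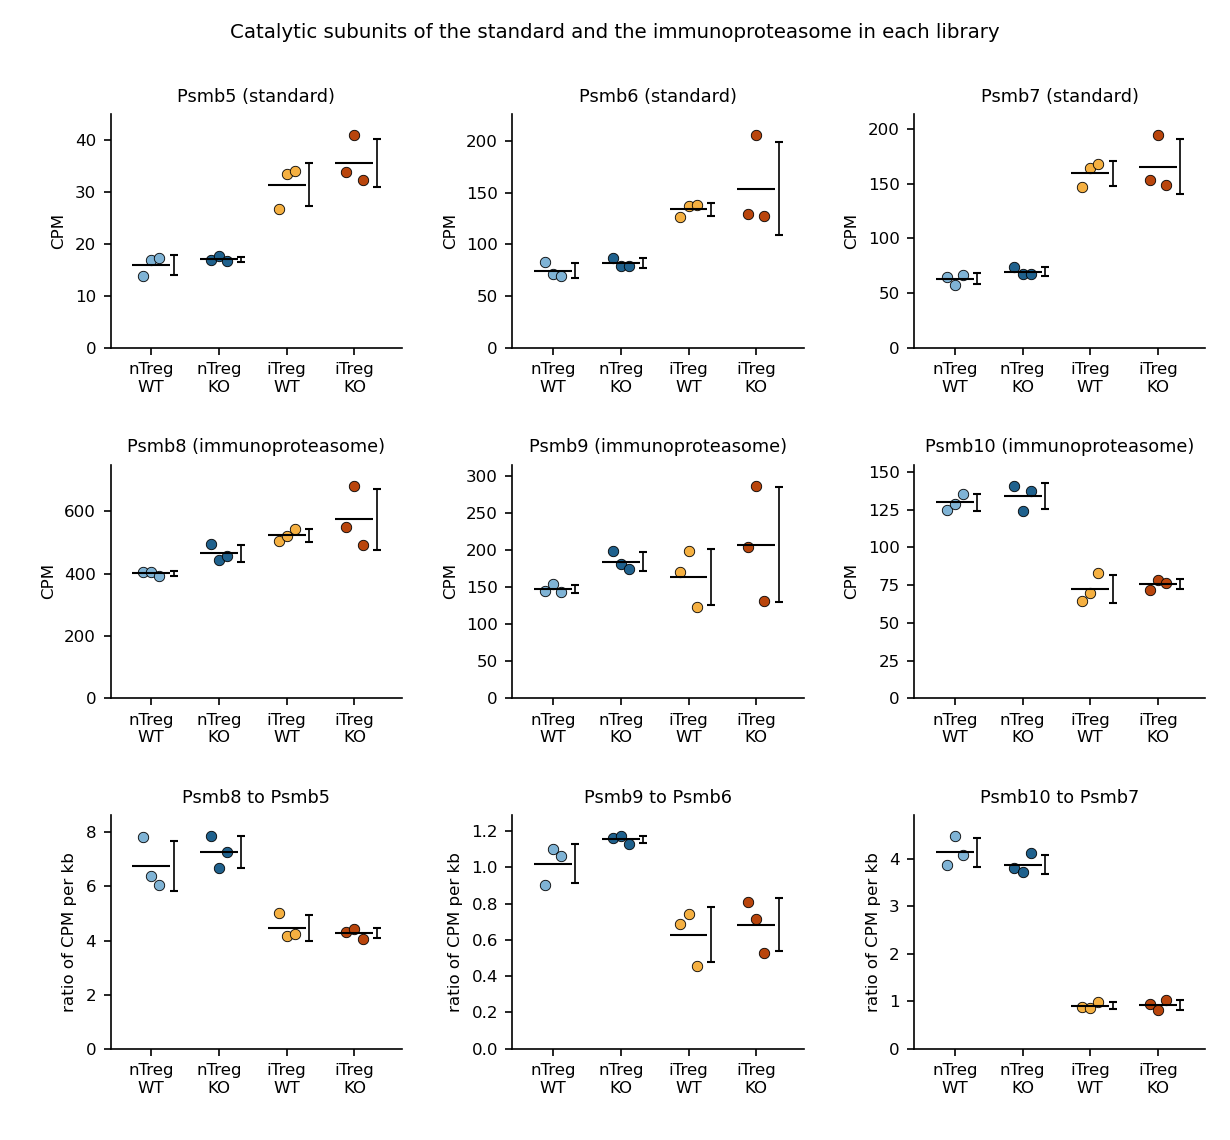
CPM of the 3 standard active-site subunits (top) and of the immunoproteasome subunits that replace them (middle), and the ratio of each pair per kilobase of merged exons (bottom), in the 4 groups; points are libraries, bars are group means and error bars the SD (n = 3). Standard subunits are higher in all iTreg libraries, Psmb10 is lower, and the 3 ratios are lower in every iTreg library than in any nTreg library.

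Among the caps that open the core without ubiquitin, the interferon-inducible pair Psme1 and Psme2 had estimates below the core's median. Psme1 was at 294.2, 287.8 and 268.0 CPM in nTreg WT and 297.3, 315.8 and 293.3 CPM in iTreg WT (0.09, SE 0.12, adjusted p = 0.503), with overlapping groups. Psme2 was at 77.7, 72.8 and 69.6 CPM against 86.5, 96.0 and 100.4 CPM (0.36, SE 0.11, adjusted p = 0.0133, up to 0.142 over the alternatives). This call was lost without nTreg WT replicate 3, the nTreg libraries numbered 2, the iTreg libraries numbered 3 or the 3 libraries with Xist. With the KO label Psme2 rose by 0.45 (adjusted p = 0.00409). Psme3, the nuclear activator, rose by 0.72 (SE 0.12, adjusted p = 1.98e-04), from 205 ± 3.6 to 338 ± 60.8 CPM, and Psme4, a large activator of the nucleus, by 0.47 (SE 0.10, adjusted p = 0.0014). With the KO label Psme4 rose by 0.32 (adjusted p = 0.0137), a call lost without nTreg KO replicate 1, iTreg KO replicate 3 or both iTreg libraries numbered 3. The inhibitor Psmf1 did not pass with either label (0.18 and 0.05). Of the 7 assembly factors 5 rose with the WT label (all genes 34.8%) and 5 with the KO label (all genes 32.1%). Without the 3 libraries with Xist, Psmg2 was lost with the WT label, and Psmg1 and Psmg2 with the KO label. With the KO label both were also lost without iTreg KO replicate 2 and without the nTreg libraries numbered 2, and Psmg1 without nTreg KO replicate 2. Psmg3 was among the 5, with 13.6, 9.9 and 12.3 CPM against 25.0, 28.8 and 26.4 CPM (1.16, SE 0.16, adjusted p = 5.16e-05). Psmd5 (0.26) and Psmd10 (0.28), chaperones of the ATPase ring, did not pass. Psmd10 passed with both labels by limma voom and without iTreg WT replicate 3, and with the KO label also with the replicate block, without iTreg KO replicate 3 and without both iTreg libraries numbered 3. Psmd5 passed with the WT label by limma voom.

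Partners of the proteasome were called in both directions. Of 17 tested partners 10 were higher in iTreg WT (all genes 34.8%) and 2 lower, Ube3c and Ubqln2 (all genes 30.4%). Usp14, a deubiquitinase bound to the cap, rose by 1.25 (SE 0.11), from 55.8 ± 3.36 to 133 ± 16 CPM, and Uchl5, another one, also rose (by 1.69, SE 0.20, with the KO label). In iTreg WT the thioredoxin-like Txnl1 rose by 1.30 (SE 0.12) and Shfm1, a small subunit of the lid, by 1.09 (SE 0.11). Pomp, which guides the assembly of the core, rose by 0.87 (SE 0.17, adjusted p = 5.99e-04). With the KO label 9 were higher (all genes 32.1%) and 2 lower (all genes 29.8%). Between KO and WT label 0 of the 17 passed in nTreg (all genes 2.53%) and 0 in iTreg (all genes 0.183%).

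Genes of class I antigen display, which uses the peptides of the immunoproteasome, were mostly lower in iTreg. Of 12 tested, 9 were lower in iTreg WT (all genes 30.4%) and 1 was higher, Canx (all genes 34.8%). In KO-labelled cells 10 were lower (all genes 29.8%) and 0 higher (all genes 32.1%). H2-K1, a class I heavy chain, was at 4849, 4634 and 4454 CPM in nTreg WT and 1597, 1695 and 1091 CPM in iTreg WT (-1.67, SE 0.20, adjusted p = 1.52e-05). B2m (-0.95), H2-D1 (-1.14), Tap1 (-0.50, SE 0.14, adjusted p = 0.00907) and Tap2 (-0.35) were lower too. Of the 12 regulators 2 were higher in iTreg WT (all genes 34.8%), Mafg (1.41, SE 0.19, adjusted p = 3.87e-05) and Maff (3.15, SE 0.72, adjusted p = 0.00207), which encode small partners of NRF1. Another 6 were lower (all genes 30.4%), among them Nlrc5 and Irf1, which are known to drive immunoproteasome or class I genes. Nlrc5, the class I transactivator, was at 714.2, 824.8 and 772.4 CPM against 159.1, 146.5 and 183.0 CPM (-2.24, SE 0.15, adjusted p = 1.46e-07). Irf1 was at 389 ± 16.3 against 192 ± 27.5 CPM (-1.02, SE 0.17). With the KO label Nlrc5 was lower as well (-1.46, SE 0.14), but Irf1 did not pass (-0.17, adjusted p = 0.372). In Irf1 and Nlrc5 the difference of the KO effects, which is also the difference between both iTreg effects, did not pass (adjusted p of 0.24 and 0.189). Between the labels, the ER chaperones of this list rose in nTreg, Calr by 1.32 (SE 0.15), Canx by 1.28 (SE 0.10) and Pdia3 by 1.20 (SE 0.12), while the heavy chains, B2m, Tap1 and Tap2 did not pass. In iTreg Calr (0.93) and Pdia3 (0.73) rose, calls that were lost in 14 and 13 of 22 alternatives. Nfe2l1 did not pass between the cell kinds with the WT label (-0.14, adjusted p = 0.232) and was lower in iTreg with the KO label (-0.64, SE 0.10, adjusted p = 1.43e-04).

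**Figure D5:**
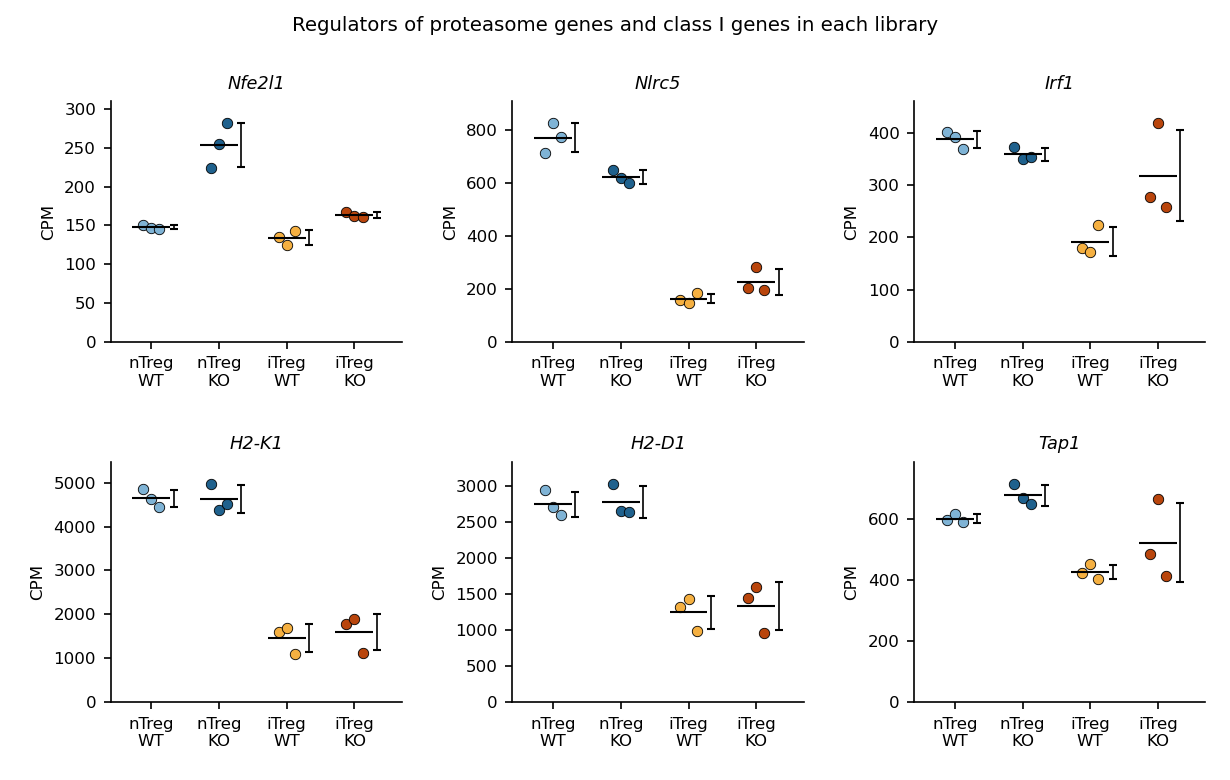
CPM of 3 regulators of proteasome genes and of the class I genes H2-K1, H2-D1 and Tap1 in the 4 groups; points are libraries, bars are group means and error bars the SD (n = 3). Nfe2l1 is higher in every KO-labelled nTreg library than in any other library, while Nlrc5 and H2-K1 are lower in every iTreg library than in any nTreg library.

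Several other measures moved with the contrast of iTreg against nTreg, and their part in it was not tested. The 18 proliferation genes were all higher in iTreg with both labels (all genes 34.8% with the WT label and 32.1% with the KO label). Their sums were 935 to 1310 CPM in nTreg WT and 8060 to 9380 CPM in iTreg WT. The 9 myeloid markers summed to 59.4 to 218 CPM in nTreg WT and to 6.53 to 9.31 CPM in iTreg WT, where 3 of them were at 0, and the 6 B cell markers to 28.1 to 33.7 and 0.994 to 3.01 CPM. The 5 NK cell markers went the other way, from 7.07 to 13.3 CPM in nTreg WT and from 25.5 to 60.8 CPM in iTreg WT. Among them Klrd1 was at 0.306 ± 0.248 and 38.5 ± 17.1 CPM. Without both nTreg libraries numbered 2, which held the most myeloid RNA, 39 and 37 members were called with the WT and KO label, and without the 3 libraries with Xist 37 and 37. Ikzf2, a marker of Treg from the thymus, fell by 5.42 on the log2 scale in iTreg WT (SE 0.22). Sorted and cultured cells also differ in their history, which cannot be told apart from the cell kind. In bulk libraries, fewer cells of a type and less RNA per cell cannot be told apart either. Of the 49 genes 15 have pseudogene copies at 90% identity or more over at least 200 bases. In iTreg WT 13 of these 15 were higher, and so were 26 of the 32 tested genes without such a copy (all genes 34.8%). The medians were 0.83 and 0.79.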

How the data were processed

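RNA of 12 libraries was measured, 3 for each of 4 groups. The authors deposited whole-number counts per gene symbol; cutadapt 1.13, STAR, HTSeq 0.6.1p1, DESeq2 and mm10 are named per the submitters' processing notes, without roles or annotation. Members and gene lists were chosen with earlier results of these data known. Genes were kept by edgeR's filter (minimum count 10, minimum total 15), which left 12038, and tested with edgeR 4.0.16 (R 4.3.3; TMM, robust quasi-likelihood fit, 1 term per group over 12 libraries, 8 residual degrees of freedom). The fit was tested on simulated data, with changed genes drawn from all those tested. Between the labels it recovered 14.9% of 1.5-fold and 65.7% of 2-fold changes in nTreg. In iTreg these shares were 23.9% and 67.2%. Intervals are 95%. WT-labelled and KO-labelled libraries of the same number deviated together within a cell kind (r from 0.438 to 0.572 in nTreg and 0.307 to 0.629 in iTreg). For unlike numbers r was -0.421 to -0.0544 in nTreg and -0.519 to 0.135 in iTreg. Across kinds, libraries of the same number did not deviate together (-0.0539 to 0.0953). What a shared number stands for is not given in the labels. Named were Syvn1, the active-site and Psme genes and Psmf1, members by smallest p, subgroup extremes, and up to 4 genes per other list; Psmd14 and the other class I, regulator and partner genes, and Foxp3 beside iTreg KO replicate 2, were chosen after their values were seen. Alternatives were RLE size factors, no or a stricter filter, DESeq2 1.42.0, limma voom 3.58.1, the replicate block, only the compared groups and leaving out libraries; the fits without pairs numbered 2 or 3 or without Xist libraries were added after seeing the data. Gene positions are from GENCODE M21.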

Additional observations from a re-analysis of the deposited data

Results flagged for a closer look

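Canx (calnexin, an ER chaperone that binds newly made glycoproteins, here from the class I list) had KO effects that differed between the cell kinds. It was at 337.7, 327.4 and 338.0 CPM in nTreg WT and 769.6, 806.0 and 866.1 CPM in nTreg KO, and at 620.6, 723.7 and 759.4 CPM against 893.5, 875.8 and 813.4 CPM in iTreg. Subtracting the nTreg effect from that in iTreg gave -0.99 on the log2 scale (SE 0.14, adjusted p = 0.012 with edgeR, 0.00753 with the replicate block), and over 21 alternatives the adjusted p reached 0.473. The call was lost without nTreg WT replicate 1, 2 or 3, without the nTreg libraries numbered 2 and without the 3 libraries with Xist.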

How the results depend on the processing

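Over 22 alternatives, the count of proteasome genes called between KO and WT label stayed at 0 in iTreg, and in nTreg it was 1 (Psmb9) when only the compared groups were fitted and 0 otherwise. The difference of the KO effects gave 0 in all 21. The count between iTreg and nTreg was 37 to 43 with either label, and 39 to 41 (WT label) and 38 to 42 (KO label) when 1 library was left out. Leaving out 1 library moved the median of the tested genes between 0.0849 and 0.128 in nTreg, between -0.0378 and 0.132 in iTreg, and between 0.756 and 0.883 for iTreg against nTreg WT. With the replicate block, which pairs libraries of the same number, 0 proteasome genes were called between the labels (5 in nTreg and 4 in iTreg at an unadjusted p under 0.05), so it changed no call there. The block gave 40 and 42 calls between the cell kinds, where libraries of the same number did not deviate together, and gained Psmd10 with the KO label. Over all genes the calls in nTreg went from 304 to 1083 with the block, 486 with DESeq2, 1068 with limma voom, 1142 with only the compared groups, 103 without the nTreg libraries numbered 2 and 71 without the 3 libraries with Xist. In iTreg they went, in the same order, from 22 to 114, 100, 33, 0, 7 and 0, and for the difference from 35 to 217 with the block. The causes were not tested. Psma8 and Psmb11 could not be tested at this depth, at which 3 counts, the limit that a count of 0 allows, are 0.194 to 0.444 CPM in a library (counting error only).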

Other observations

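Genes that make and activate ubiquitin, the tag read by the 19S cap, were also compared between the cell kinds. Of 12 tested 6 rose in WT-labelled iTreg (all genes 34.8%) and 0 fell (all genes 30.4%), and with the KO label 6 rose (all genes 32.1%) and 0 fell (all genes 29.8%). Uba1, the main activating enzyme, was at 547.5, 495.1 and 555.0 CPM in nTreg WT and 1193, 1385 and 1108 CPM in iTreg WT (log2 fold change 1.21, SE 0.13, adjusted p = 6.94e-06 with edgeR). The conjugating enzyme Ube2k rose by 0.83 (SE 0.12), Uba3, which activates the ubiquitin-like NEDD8, by 0.75 (SE 0.11), and Ube2g2, a conjugating enzyme of ER-associated degradation, by 0.63 (SE 0.10). Between KO and WT label 0 of the 12 passed in nTreg (all genes 2.53%) and 0 in iTreg (all genes 0.183%).

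Psmc3ip, which matched the symbol rule without being a subunit, had the largest value of the matched genes between the cell kinds. This recombination factor was at 3.4, 1.98 and 2.98 CPM in nTreg WT and 12.4, 15.6 and 15.7 CPM in iTreg WT (2.38, SE 0.25, adjusted p = 6.58e-06 with edgeR), a 5.19-fold higher level, and the groups were far apart.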
